A study of Homo sapiens with 6 samples.

Results

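Transcripts of 6 genes that act in cell attachment, movement and invasion were followed in NCM-460, an established line of normal human colon epithelium: ITGB1, CD44, S100A4, CAV1, PLAUR and MMP2. They were picked by name from a NanoString nCounter panel of 236 cancer-related genes, so they make up 6 of 236 genes. nCounter counts barcoded probes hybridised to RNA, without amplification. The labels assign 3 samples to a control siRNA and 3 to pri-miR-135b, the primary transcript from which the microRNA miR-135b is cut; all samples are of this one line, transfected, and their RNA was taken with Trizol and adjusted to 33 ng per microlitre. The series' design text instead names scrambled and miR-135b oligos. The sources used here give neither dose nor time after transfection. They also do not say that the samples of a group are separate cultures, so the p-values rest on a spread between samples that could be technical. A difference in RNA per cell and a difference in the share of cells that express a gene cannot be told apart in such bulk RNA.

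Cells hold on to the matrix through integrins, receptors built of an alpha and a beta chain. The beta-1 chain encoded by ITGB1 joins many alpha chains into receptors for collagen, laminin and fibronectin, and CD44 binds hyaluronan, a long matrix sugar. S100A4 is a calcium-binding protein that interacts with non-muscle myosin and is known for its link to metastasis. CAV1 encodes caveolin-1, the coat protein of the membrane pits called caveolae. PLAUR encodes the surface receptor for urokinase, which starts plasmin production at the cell edge, and MMP2 encodes a secreted gelatinase that cuts basement membrane collagen. A microRNA guides the silencing machinery to transcripts that pair with its seed, the bases near its 5′ end.

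The microRNA is shown first because it is what the transfection was meant to supply; the sequences are RefSeq's for GRCh38.p14, read 5′ to 3′. Mature hsa-miR-135b-5p lies at chr1:205448361-205448383 on the minus strand, and capitals mark its seed, bases 2 to 8. That seed is carried by 2 of 2545 listed mature sequences, the other being hsa-miR-135a-5p. In the hairpin, at chr1:205448302-205448398 on the minus strand, capitals mark the 5p product.
hsa-miR-135b-5p: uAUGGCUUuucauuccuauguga
hsa-miR-135a-5p: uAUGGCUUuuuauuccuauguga
MIR135B hairpin: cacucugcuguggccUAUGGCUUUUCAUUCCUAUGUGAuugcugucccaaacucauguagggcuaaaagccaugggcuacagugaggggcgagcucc
Transcript sequences were not used here, so seed matches in the 6 transcripts were not searched, and the panel has no probe for miR-135b itself.

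Differing responses were seen among the 6 genes. ITGB1, CD44 and S100A4 fell in the samples given pri-miR-135b, by 1.47-fold, 1.41-fold and 1.39-fold. CAV1 rose 1.26-fold and PLAUR rose 1.12-fold, while MMP2 did not pass, with mean normalised counts of 17.9 ± 3.16 against 23.7 ± 2.52 (SD, n = 3). These calls come from edgeR's quasi-likelihood test with Benjamini-Hochberg adjustment over 174 genes and a threshold of 0.05; 174 of the 236 genes exceeded background, the mean plus 2 SD of a sample's 8 negative probes, in at least 3 samples. Thus 5 of the 6 were called, 2 higher and 3 lower, where 43.1% of all tested genes were called, 17.8% higher and 25.3% lower; the 6 genes were chosen with results of these data known, and nothing is read from the difference. The split of the panel moved with the scaling, from 31 higher and 44 lower calls (41.3% higher) to 36 and 35 with DESeq2 size factors (50.7%), 37 and 30 with reference genes (55.2%) and 13 and 13 with the positive spikes (50%). Among the 6 genes the 3 falls were called under every one of these scalings, and both rises under all but the spikes.

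**Figure D1:**
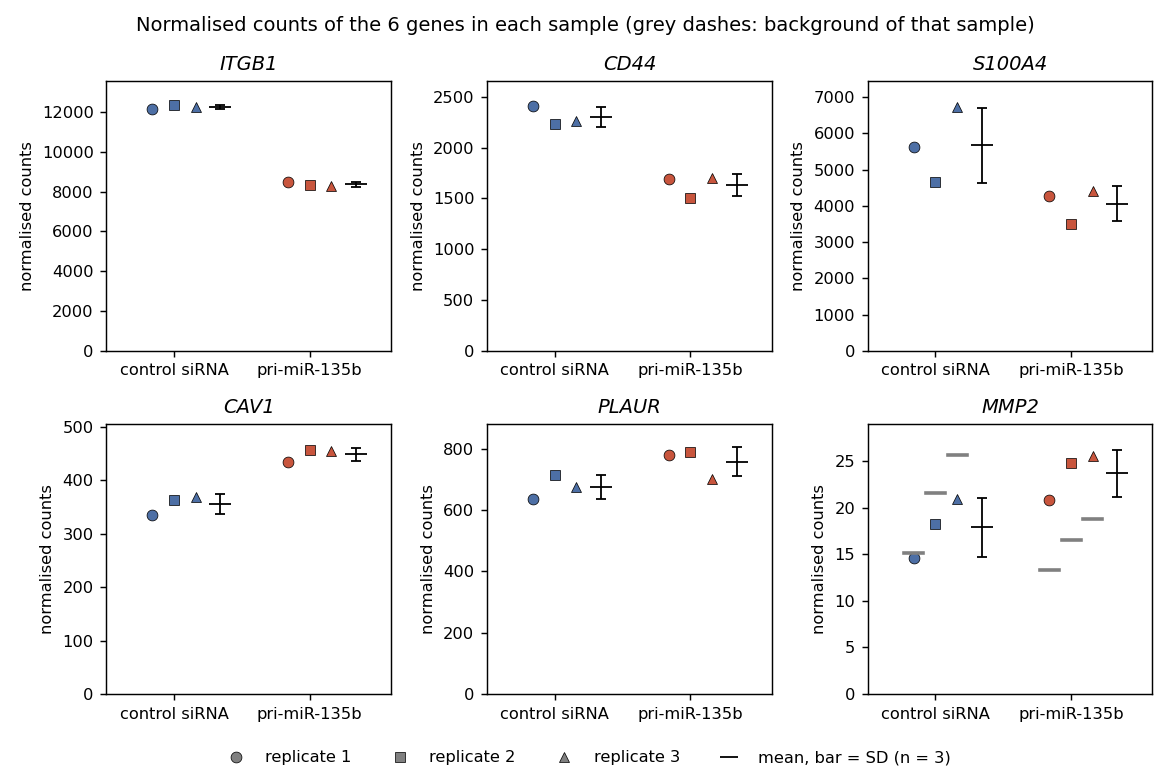
Normalised counts of the 6 genes (vertical axes, from 0) in the 3 control siRNA and 3 pri-miR-135b samples; points are samples, dashes with bars are mean and SD, and grey dashes in the MMP2 panel give each sample's background. ITGB1, CD44, S100A4 and CAV1 separate the groups, PLAUR overlaps in 1 sample, and MMP2 lies below background in the 3 control samples.

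The ranges of whole-panel measures overlapped between the groups. Total gene counts ran from 250792 to 392207 per sample. Between 159 and 175 genes exceeded background in control samples and between 172 and 183 in pri-miR-135b samples. Background lay between 15.6 and 26.1 counts in control and between 14.7 and 16.7 in pri-miR-135b samples. Spike counts were 8.18% to 11.3% of gene counts. Of 6 reference genes, PGK1 alone was called (log2 fold change -0.12). As for the cell type, 5 of the 6 epithelial markers on the panel were measured, and 4 of these were called: CDH1 and CTNNB1 higher (log2 fold changes 0.28 and 0.66), ERBB3 and ERBB2 lower (-0.51 and -0.19). The ERBB2 call was lost in 10 of 18 alternatives, with edgeR adjusted p = 0.128 without control replicate 3, 0.111 without pri-miR-135b replicate 1, 0.0537 without control replicate 1 and 0.0568 without pri-miR-135b replicate 2. MST1R was not called (0.03). The listed epithelial markers thus moved both ways, and their part in the results below was not tested. Of 9 blood markers 7, and of 7 fibroblast and endothelial markers 4, exceeded background in no sample. Their summed normalised counts were 82.3 to 91.6 in control and 87.9 to 98.2 in pri-miR-135b samples for blood, and 73.2 to 113.9 and 88.1 to 112.2 for fibroblasts and endothelium. No tested marker of those 2 lists was called.

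ITGB1 had the tightest values of the 6. Its normalised counts, scaled by TMM to the mean library size, were 12177, 12351 and 12289 in the control samples and 8512, 8319 and 8264.5 in the pri-miR-135b samples. Each group therefore spread by 0.721% and 1.56% of its mean (CV), and the 2 groups stand far apart. The log2 fold change was -0.55 (SE 0.03, 95% interval -0.61 to -0.50, edgeR adjusted p = 1.92e-13, lower in 3 of 3 samples), and 6 of the 174 tested genes had a lower value. ITGB1 alone supplied 3.77% ± 0.04 of all gene counts in control and 2.59% ± 0.02 in pri-miR-135b samples (SD, n = 3). Its probe was designed to a transcript accession that the current RefSeq table no longer lists. All 6 genes were matched to that table by symbol.

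CD44, the hyaluronan receptor, fell as well. The control samples held 2412, 2233 and 2256 normalised counts and the pri-miR-135b samples 1694, 1504 and 1697 (means 2300.4 ± 97.5 and 1631.6 ± 110.5, SD, n = 3). All 3 of the latter lie below all 3 controls. The log2 fold change was -0.50 (SE 0.05, 95% interval -0.60 to -0.39, edgeR adjusted p = 3.84e-08). CD44 is spliced into many forms, and 39 curated transcripts are listed for it; the sources used here do not say which of them the probe detects.

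S100A4 was the most scattered of the 3 genes that fell. It had 5631, 4652 and 6736 normalised counts in the control samples against 4276, 3504 and 4409 in the pri-miR-135b samples, CVs of 18.4% and 12%. The groups do not overlap, but the highest pri-miR-135b sample reached 0.948 of the lowest control. The log2 fold change was -0.48 (SE 0.09, 95% interval -0.66 to -0.30, edgeR adjusted p = 0.000104). edgeR draws each gene's variance toward the trend of the panel, so this SE and interval rest in part on other genes. The SE was 0.177 in the robust fit, where the call was lost (adjusted p = 0.0977). It was 0.182 in the DESeq2 Wald test, where the call held (adjusted p = 0.0328). The call was also lost with limma on the authors' normalized values (0.0516) and with limma after background subtraction (0.109). Without control replicate 3 the log2 fold change was -0.33, and without control replicate 2 it was -0.60; both stayed called.

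CAV1, the caveolar coat gene, went the other way. The counts were 335, 363 and 370 in the control samples and 435, 457 and 455 in the pri-miR-135b samples, after normalisation, so that the lowest of the latter was 1.18 times the highest control. The log2 fold change was 0.34 (SE 0.07, 95% interval 0.19 to 0.48, edgeR adjusted p = 4e-04). It stayed called in each fit that left out 1 sample, and lost the call with spike scaling alone (0.35, adjusted p = 0.191).

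PLAUR, the urokinase receptor, was at 637, 714 and 675 normalised counts in the control samples and at 781, 790 and 702 in the pri-miR-135b samples. The groups overlap: replicate 3 of the pri-miR-135b group lies under control replicate 2. The log2 fold change was 0.17 (SE 0.06, 95% interval 0.04 to 0.30, edgeR adjusted p = 0.031). The call was lost in 5 of 18 alternatives, among them the fits without control replicate 1 (adjusted p = 0.151), pri-miR-135b replicate 1 (0.131) or pri-miR-135b replicate 2 (0.127), and over all of them the adjusted p ran from 0.00571 to 0.578. Its sign did not turn in any.

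MMP2, the gelatinase, was counted at the edge of detection. Raw counts were 15, 22 and 16 in the control samples, where the highest negative probe gave 16, 26 and 20, and 25, 25 and 20 in the pri-miR-135b samples, where it gave 13, 15 and 13. All 3 control samples thus lie below and all 3 pri-miR-135b samples above their own background, and the gene met the filter only through the latter group. That background was 15.6 to 26.1 counts in control and 14.7 to 16.7 in pri-miR-135b samples, and its part in this was not tested. Normalised counts overlap between the groups, at 14.6, 18.2 and 20.9 against 20.8, 24.8 and 25.5. The log2 fold change was 0.40 (SE 0.25, 95% interval -0.12 to 0.93, edgeR adjusted p = 0.205). Subtracting the mean of the negative probes, with reference gene scaling and limma, raised it to 0.93 with an adjusted p of 0.0317; over the other alternatives that gave one the adjusted p lay between 0.0744 and 0.447. The interval takes in no change as well as a rise larger than the fall of ITGB1.

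**Figure D2:**
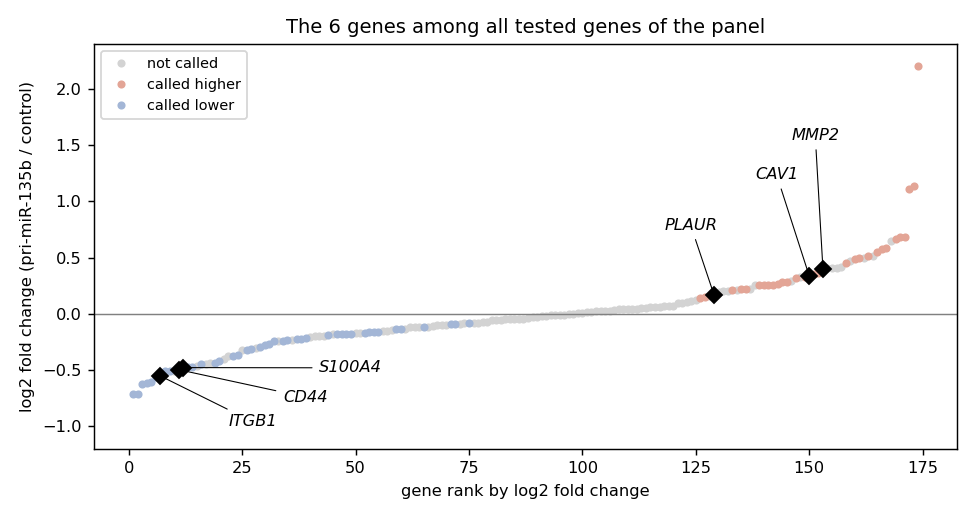
Log2 fold change (vertical axis, pri-miR-135b over control siRNA) of the 174 tested genes in rank order (horizontal axis), coloured by call, with the 6 genes as black diamonds. ITGB1, CD44 and S100A4 sit among the lowest 12 genes, CAV1 and MMP2 in the upper part, and PLAUR nearer the middle.

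In all, the groups did not overlap for 4 of the 6 genes (ITGB1, CD44, S100A4 and CAV1), 1 higher and 3 lower; of all tested genes 51.7% did not overlap, 21.8% higher and 29.9% lower. The median log2 fold change was -0.15 over the 6 genes, MMP2 included although it met the filter only through its higher group, and -0.04 over all 174, a middle value between genes that moved in opposite directions. Summed over the 6 genes, normalised counts went from 21294.9 ± 1010.8 in control to 15290.4 ± 604 in pri-miR-135b samples (SD, n = 3), a sum made up mostly of ITGB1 and S100A4 counts. With TMM, DESeq2 size factors, total counts, reference genes or spikes as the scale, log2 fold changes ran from -0.55 to -0.51 for ITGB1, -0.50 to -0.45 for CD44, -0.48 to -0.44 for S100A4, 0.34 to 0.38 for CAV1 and 0.17 to 0.21 for PLAUR.

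A ratio of 2 genes within a sample needs no scaling, so each gene's raw counts were also set against 1000 ITGB1 counts of the same sample, a comparison chosen after the values were seen. CD44 stood at 198, 181 and 184 per 1000 in control and 199, 181 and 205 in pri-miR-135b samples, and S100A4 at 462, 377 and 548 against 502, 421 and 534. For both genes the groups overlap. CD44's mean ratio was 187.5 ± 9.29 against 195 ± 12.7 (SD, n = 3; exact permutation test on log2 ratios, two-sided, p = 0.4, adjusted over 4 ratios 0.533). S100A4 gave 462.4 ± 85.7 against 485.7 ± 58 (exact permutation p = 0.7, adjusted 0.7). With 3 against 3 samples this test cannot give a p below 0.1, which lies above the threshold used for calls. It could therefore not have called a shift of CD44 or S100A4 against ITGB1, whatever the spread. Its result is not evidence that the 3 genes fell by the same amount. CAV1 per 1000 ITGB1 counts was 27.5, 29.4 and 30.1 in control and 51.1, 55 and 55.1 in pri-miR-135b samples, 1.85 times the control mean. PLAUR per 1000 went from 52.3, 57.8 and 55 to 91.7, 95 and 85, or 1.65 times. The exact permutation p was 0.1 for each of these, the smallest that 3 against 3 samples allow (adjusted 0.2). The groups lie apart, but ITGB1's own fall, to 0.68 of control, lifts the ratio of any gene that did not fall with it. The separation is therefore not read as a rise of CAV1 or PLAUR, and PLAUR's own normalised counts overlap between the groups. How many other tested genes would lie apart in such a ratio was not counted.

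**Figure D3:**
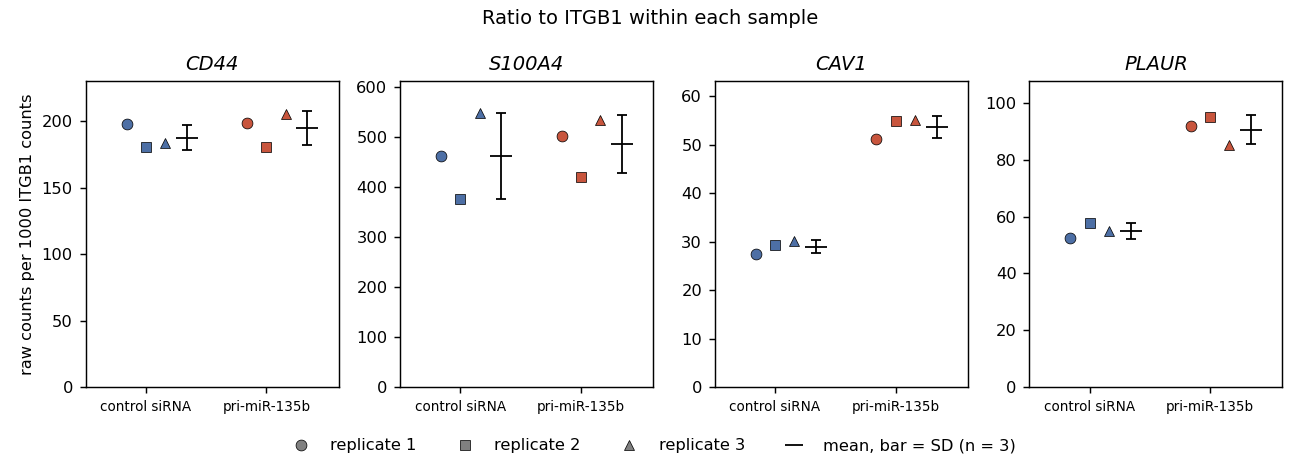
Raw counts of CD44, S100A4, CAV1 and PLAUR per 1000 ITGB1 counts of the same sample (vertical axes, from 0), with mean and SD of 3 samples per group. CD44 and S100A4 overlap between the groups, while CAV1 and PLAUR lie at 1.85 and 1.65 times the control mean. ITGB1, the denominator, fell itself, and its fall enters every ratio.

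Other adhesion and invasion genes of the panel were taken from a list by role. The list was drawn up with earlier results known and leaves out some such genes of the panel. With the 6 genes it has 29 genes on the panel, of which 21 could be tested; 9 were called higher and 4 lower, where 17.8% of all 174 tested genes were called higher and 25.3% lower. Under spike scaling 3 were called higher and 4 lower, where the panel had 13 and 13 calls. Without the 6, 15 could be tested, 7 were called higher and 1 lower, with a median log2 fold change of 0.15 against -0.04 for all tested genes. Since the list was drawn up with results known, nothing is read from these counts.

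Among the listed surface receptors and matrix proteins, ITGB1 and CD44 were the 2 lower calls. The secreted matrix proteins CTGF and TGFBI were the 2 higher ones. Outside the list, the laminin chain gene LAMB1 and the hyaluronan receptor gene HMMR were called higher (log2 fold changes 0.36 and 0.25). COL1A1, a collagen chain gene, was not called, and L1CAM, CDH11 and PLG did not meet the filter. CTGF, a matricellular protein that binds integrins, was counted at 39.2 ± 4.58 in control against 87.4 ± 14.2 in pri-miR-135b samples after normalisation (SD, n = 3; log2 fold change 1.14, SE 0.18, edgeR adjusted p = 1.53e-05). TGFBI, another integrin-binding matrix protein, rose by a log2 fold change of 0.37 (445.3 ± 12.5 against 576.1 ± 21.2, SE 0.06, edgeR adjusted p = 5.22e-05). TGFBI lost the call with spike scaling (log2 fold change 0.37, SE 0.17, edgeR adjusted p = 0.14). SPP1, which encodes osteopontin, a ligand of integrins and CD44, exceeded background in no sample.

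Of 11 matrix protease genes, inhibitors and the urokinase receptor, 5 could be tested and PLAUR was the 1 call. The metalloproteinase inhibitors TIMP1 and TIMP2 had log2 fold changes of 0.05 (95% interval -0.05 to 0.14) and 0.05 (-0.21 to 0.30). MMP1, the interstitial collagenase, was close to background like MMP2, with 15.6, 34.7 and 9.1 normalised counts for control and 30.8, 26.7 and 28 in pri-miR-135b samples (log2 fold change 0.41, edgeR adjusted p = 0.29). Without control replicate 2 its log2 fold change was 1.15 and passed (adjusted p = 0.00177). MMP3, MMP9 and MMP14 exceeded background in no sample, PLAT, the tissue plasminogen activator, in 1 and TIMP3 in 2.

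Both junction genes rose: CDH1, the E-cadherin gene, from 1625.7 ± 70.4 to 1979.1 ± 99.8 normalised counts (SD, n = 3; log2 fold change 0.28, SE 0.05), and CTNNB1, which encodes its partner beta-catenin (log2 fold change 0.66, SE 0.04). CDH1 lost its call with spike scaling (log2 fold change 0.29, SE 0.17, edgeR adjusted p = 0.307). Of 6 tested kinases that act next to integrins, the Src family members FYN and YES1 were called higher (log2 fold changes 0.55 and 0.15) and SYK lower (-0.71). CSK, which restrains Src kinases, had 0.01 (95% interval -0.10 to 0.12), and ABL1 -0.17 (edgeR adjusted p = 0.0883). LYN, at 27.1 ± 7.76 against 17.5 ± 5.92 normalised counts (SD, n = 3), was not called (edgeR adjusted p = 0.155), but passed without control replicate 2 (log2 fold change -0.72, adjusted p = 0.0331). YES1 lost its call with spike scaling (log2 fold change 0.17, SE 0.17, edgeR adjusted p = 0.625). Beside S100A4 and CAV1, the metastasis-linked genes held MET, the receptor for hepatocyte growth factor, which rose (log2 fold change 0.32, SE 0.03; adjusted p = 0.225 with spikes), and MTA1, a chromatin remodelling factor, with 0.00 (95% interval -0.11 to 0.11).

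**Figure D4:**
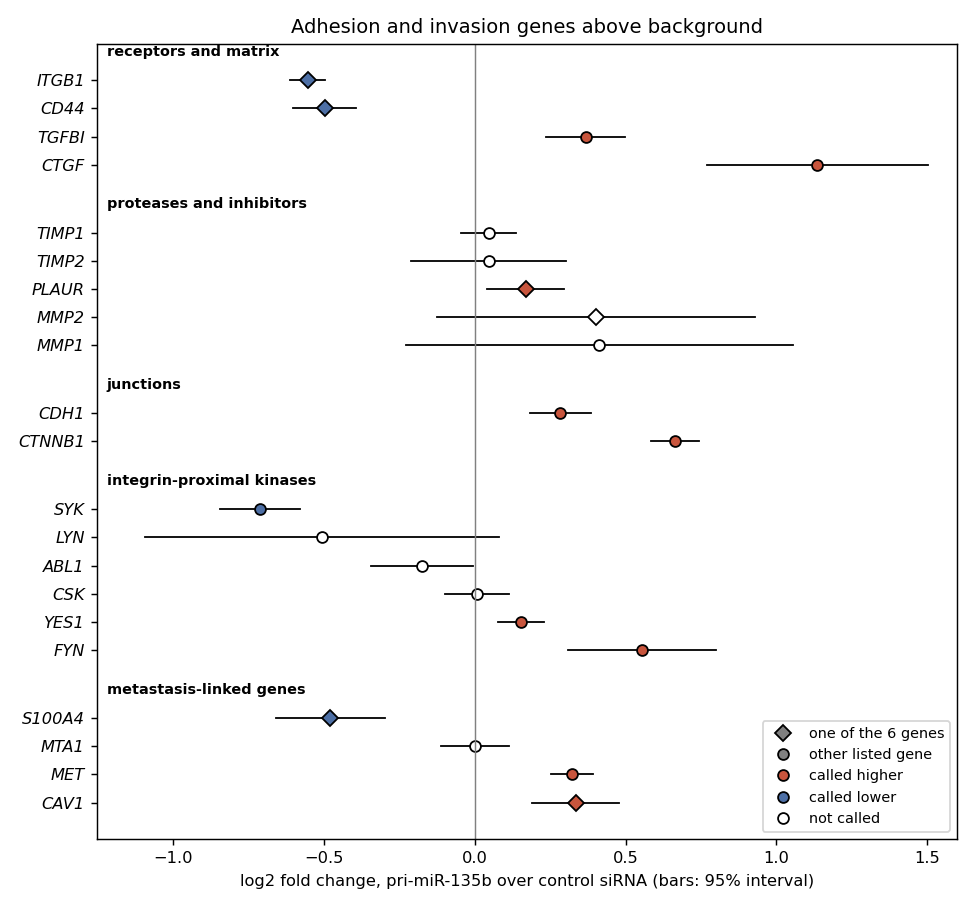
Log2 fold change with 95% interval (horizontal axis, pri-miR-135b over control siRNA) of the 21 tested genes of the adhesion and invasion list, by role. Diamonds are the 6 genes, red and blue mark calls, white no call. ITGB1, CD44, SYK and S100A4 are the 4 lower calls, and intervals are widest for MMP1, MMP2 and LYN.

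For each of the 6 genes the tested gene outside them with the most similar course was sought, by the root mean square difference of mean-centred log2 normalised counts over the 6 samples. The centring spans both groups, so the measure largely finds genes with a like fold change. The nearest of 168 genes lies below their median by construction, and no link between genes is read from it. ERBB3, a receptor of the EGF receptor family, was nearest to both ITGB1 (0.053) and CD44 (0.051), where the median gene of the 168 compared lay at 0.285 and 0.264. Its mean was 866.7 ± 10.9 normalised counts for control and 607.9 ± 40.7 for pri-miR-135b (SD, n = 3). BCL6, a transcriptional repressor, was nearest to S100A4 (0.082, median 0.311), but its own call was lost in 12 of 18 alternatives. CDH1 was nearest to CAV1 (0.053, median 0.230) and to MMP2 (0.152, median 0.306), and YES1 to PLAUR (0.053, median 0.185).

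Because ITGB1, CD44 and S100A4 fell together, their promoters are printed: the 250 bases before the outermost annotated start of the gene, from RefSeq on GRCh38.p14, 5′ to 3′ along the gene. PLAUR is added as the 1 gene with an AP-1 match among the 5 whose window was searched, and capitals mark every match to the motifs below. MMP2 has no promoter entry and was not searched. The windows are chr10:32958231-32958480 (minus strand), chr11:35138921-35139170 (plus), chr1:153545807-153546056 (minus) and chr19:43670170-43670419 (minus).
ITGB1: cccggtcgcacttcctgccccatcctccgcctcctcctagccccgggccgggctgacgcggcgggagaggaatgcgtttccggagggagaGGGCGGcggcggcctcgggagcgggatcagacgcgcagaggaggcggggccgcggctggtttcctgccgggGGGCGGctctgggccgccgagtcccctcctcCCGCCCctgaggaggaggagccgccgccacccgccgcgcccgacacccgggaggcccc
CD44: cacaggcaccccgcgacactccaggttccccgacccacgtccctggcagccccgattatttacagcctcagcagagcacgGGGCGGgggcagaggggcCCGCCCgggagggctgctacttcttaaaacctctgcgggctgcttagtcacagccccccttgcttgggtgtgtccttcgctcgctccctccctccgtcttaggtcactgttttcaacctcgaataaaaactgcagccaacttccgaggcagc
S100A4: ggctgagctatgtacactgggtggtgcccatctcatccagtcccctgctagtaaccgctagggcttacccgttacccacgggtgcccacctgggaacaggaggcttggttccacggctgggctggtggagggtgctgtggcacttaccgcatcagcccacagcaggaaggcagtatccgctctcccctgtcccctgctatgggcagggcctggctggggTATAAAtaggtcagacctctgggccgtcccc
PLAUR: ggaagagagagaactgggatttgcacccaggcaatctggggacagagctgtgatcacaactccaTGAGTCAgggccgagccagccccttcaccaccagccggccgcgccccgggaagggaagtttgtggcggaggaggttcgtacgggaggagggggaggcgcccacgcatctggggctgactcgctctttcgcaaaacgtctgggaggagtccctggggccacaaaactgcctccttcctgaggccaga
Both strands were searched for AP-1 (TGANTCA), TCF/LEF (CTTTGAT or CTTTGTT), the GC box (GGGCGG) and the TATA box (TATAAA), which are present in 6.57%, 6.6%, 42.6% and 10.7% of 35116 promoter windows of that length. ITGB1 has 3 GC boxes, CD44 has 2, and S100A4 has none but holds a TATA box from 31 to 26 bases before its start. CAV1, whose window is not printed, has 3 GC boxes, and PLAUR has the AP-1 letters from 186 to 180 bases before its start. No searched motif was present in all 3 genes that fell, and none of the 5 windows holds the TCF/LEF letters. ITGB1 has 2 promoter entries in the table and CAV1 has 3, and the windows at their other starts were not searched. These matches describe letters only.

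**Figure D5:**
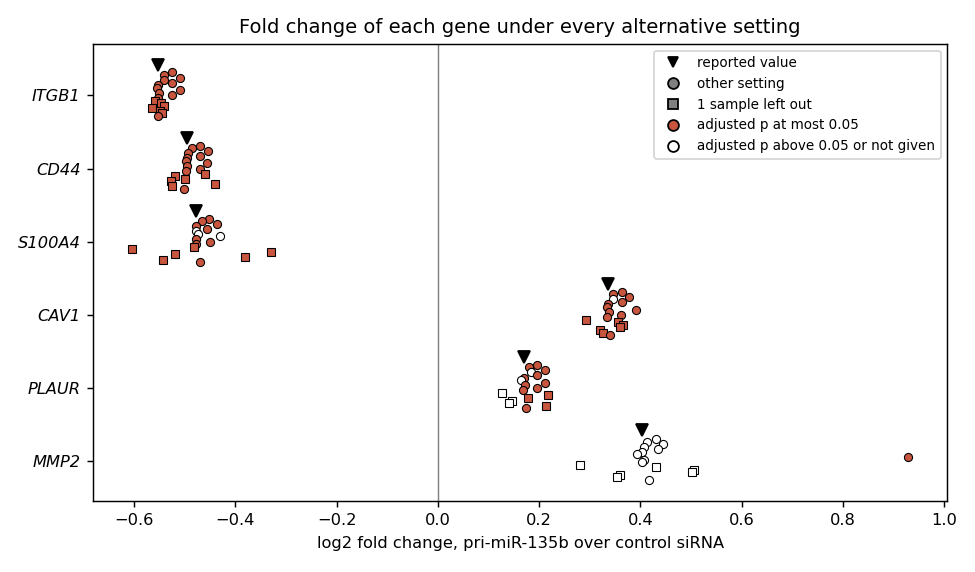
Log2 fold change (horizontal axis) of each of the 6 genes as reported (black triangle), with 1 sample left out (squares) and under the other settings (circles); red marks an adjusted p of at most 0.05 and white a higher or missing one. ITGB1 and CD44 stay called throughout, the white points are in S100A4, CAV1, PLAUR and MMP2, and the lone MMP2 point at 0.93 is the background-subtracted value.

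Each of the 6 genes kept its sign in all alternatives that tested it, as the plot of alternative settings shows. ITGB1 and CD44 kept their calls in 18 of 18, CAV1 in 17, S100A4 in 15 and PLAUR in 13. By the sample labels the groups differ in the kind of RNA transfected as well as in the intended supply of miR-135b. The level of miR-135b was not measured, and those differences cannot be told apart.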

How the data were processed

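Barcode counts of 6 positive spike probes, 8 negative probes and 236 genes in 6 samples were deposited by the authors as raw counts per probe. The sources used here name no counter, software or lane correction. A second table by the authors holds normalized values on a linear scale, taken here as signal: all 1416 equal the raw count (0 set to 1) times 1 factor per sample (0.826 to 1.29) within 0.02, and what the factors rest on is not given. Those values served as an alternative.

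Groups and replicate numbers come from the sample titles. Genes above the mean plus 2 SD of the negative probes in at least 3 samples were tested with edgeR 4.0.16 (TMM, glmQLFit, glmQLFTest, group as the only term, R 4.3.3), two-sided. Fold changes are pri-miR-135b over control; SE is the absolute log2 fold change over the square root of F. Total gene counts of 250792 to 392207 per sample set the depth. The fit was tested on counts simulated from its own model at the panel's variance trend, which cannot test genes far from that trend. Alternatives used other scalings, filters, limma 3.58.1 (pseudocount 1), DESeq2 1.42.0, a replicate block and samples left out in turn.

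The 6 genes and all lists were chosen with earlier results of these data known. Named are the 6 genes, the tested genes of the role list, each gene's nearest neighbour and, where few, genes that a count singles out. Some panel genes of the same kind outside that list are also named. Gene names are the files'; of the 6 probe accessions 5 are in the RefSeq table of GRCh38.p14. Printed microRNA and promoter sequences come from RefSeq tables of that assembly. Some genes that the naming rule could select are not reported here.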

Additional observations from a re-analysis of the deposited data

How the results depend on the processing

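Scaling by the positive spikes cut the calls most, to 3 of the 6 genes, 7 of the listed genes and 26 of the panel, against 5, 13 and 75; limma on the authors' normalized values also gave 3 of the 6. The cause was not tested. In the other alternatives these counts stayed within 1.5 times, and with 1 sample left out they were 4 to 5, 12 to 15 and 60 to 76. Of 429 alternative values of 24 named genes, sign and call held in 382, a call was lost in 35 and gained in 3, and the sign turned in 9, all of genes called in no fit: TIMP2 ran from -0.061 to 0.114, CSK from -0.044 to 0.044 and MTA1 from -0.021 to 0.034 with 1 sample left out, and MTA1 was -0.003 with limma on the authors' values and -5e-04 with the replicate block. With that replicate block 80 panel genes passed, including all 75, and the same 5 of the 6 genes. Deviations of same-numbered samples correlated by 0.04, -0.14 and 0.12 (174 genes, with 3 of 6 samples closest to their own number), so the numbers were not taken as pairs. MMP2 was left untested by the filter in all 6 samples and had no adjusted p with DESeq2. Counts of MMP2, MMP1 and LYN lie near background; how far depth limits them was not tested.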
